A study of Homo sapiens with 8 samples.

Results

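The exon junction complex (EJC) is the group of proteins that the spliceosome leaves on spliced mRNA just upstream of each joined pair of exons. The 9 genes described here were chosen by name, and were 9 of the 17912 genes analysed. EIF4A3, MAGOH, its paralog MAGOHB and RBM8A encode the core, and CASC3 a factor that joins the core mainly in the cytoplasm. RNPS1, ACIN1, SAP18 and PNN encode the peripheral proteins of the assemblies called ASAP and PSAP. All 9 passed the filter on low values, a minimum of 1 for the mean signal over the 8 libraries, which 15542 genes passed.

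As background, EIF4A3 is a DEAD-box ATPase that clamps RNA, and the heterodimer of MAGOH or MAGOHB with RBM8A (also called Y14) locks it in the closed state. The complex marks where introns were removed, helps mRNA leave the nucleus, and is displaced by the ribosome. An EJC that persists downstream of a stop codon promotes nonsense-mediated decay (NMD). ASAP (ACIN1, RNPS1, SAP18) and PSAP (PNN, RNPS1, SAP18) share 2 subunits and differ in the scaffold, and they act on splice site choice.

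The cells were NKM-1, a human leukemia line that the labels call myeloid and wildtype. They were exposed for 48 h to 30 uM SF153, which the series title places among inhibitors of UHM splicing factors (UHM stands for U2AF homology motif), or to DMSO as the control. There were 4 libraries per treatment from 2 batches, named here by batch and then library (2.1 is the first of batch 2). The labels do not state whether the pair of libraries from 1 treatment and batch came from different cultures, so p-values measure only the spread between libraries, which may be technical. The values are a signal per gene that the authors' file labels call both CPM and TPM. Whether it is corrected for gene length was not settled, so an order of levels between genes, or a ratio of 2 genes above or below 1, holds only if it is. A difference of such a ratio between treatments does not depend on a fixed length. Read depth is unknown.

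The share of signal from mitochondrially encoded genes was 16.8% in SF153 2.1 and 2.2 and 9.17% to 9.92% in the other 6 libraries. That of RN7SK was 18.7% in SF153 1.1, 18.2% in SF153 1.2 and 11.4% to 13.9% elsewhere. The sum of signal over all genes was 828381 in SF153 2.1, 835840 in SF153 2.2 and 990815 to 1027119 in the other libraries. Of 8 myeloid markers, 6 were among the genes analysed, with a summed signal of 1418 to 1534 in DMSO and 930 to 1144 in SF153. They did not all move the same way. MPO made up much of the sum (717 to 763 in DMSO, 420 to 543 in SF153), CD33 was higher in SF153 (68.4 to 83.3 in DMSO, 90.5 to 108.9 in SF153), and SPI1 differed little (71.1 to 77.2 in DMSO, 63.0 to 70.3 in SF153). CD34 and KIT, and all 12 markers of lymphoid, erythroid, fibroblast, epithelial and endothelial cells, were not among the genes analysed. The part of these differences in the results on the EJC was not tested, except where values without a library are given.

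Among the EJC genes, 3 core genes and SAP18 fell to between 36.3% and 56.8% of their DMSO mean, RNPS1 fell to 76.2%, and the ASAP scaffold ACIN1 rose to 117.9%. MAGOHB, CASC3 and PNN did not pass the test. A gene was called when the limma adjusted p (Benjamini-Hochberg over all 15542 genes) was below 0.05. In this way 5 of the 9 genes were lower, against 24.3% of all genes tested, and 1 was higher, against 13.0%. All 9 are protein-coding, whereas 11073 of the 15542 genes tested had a coding sequence. Among those 11073, 18.6% to 58.8% were lower and 3.81% to 15.8% higher, depending on the class of coding length. The shares of all genes set beside the partner lists below are likewise over coding and noncoding genes. The median log2 difference, SF153 minus DMSO on the log2(signal + 1) scale, was -0.39 for the 9 genes and -0.034 for all genes. The median of the 9 depended on the processing, at -0.048 when mitochondrial and small RNA genes were dropped before rescaling and 0.077 after removal of a trend on coding length. In a bulk sample less RNA of a gene per cell and fewer cells that carry it cannot be told apart.

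**Figure D1:**
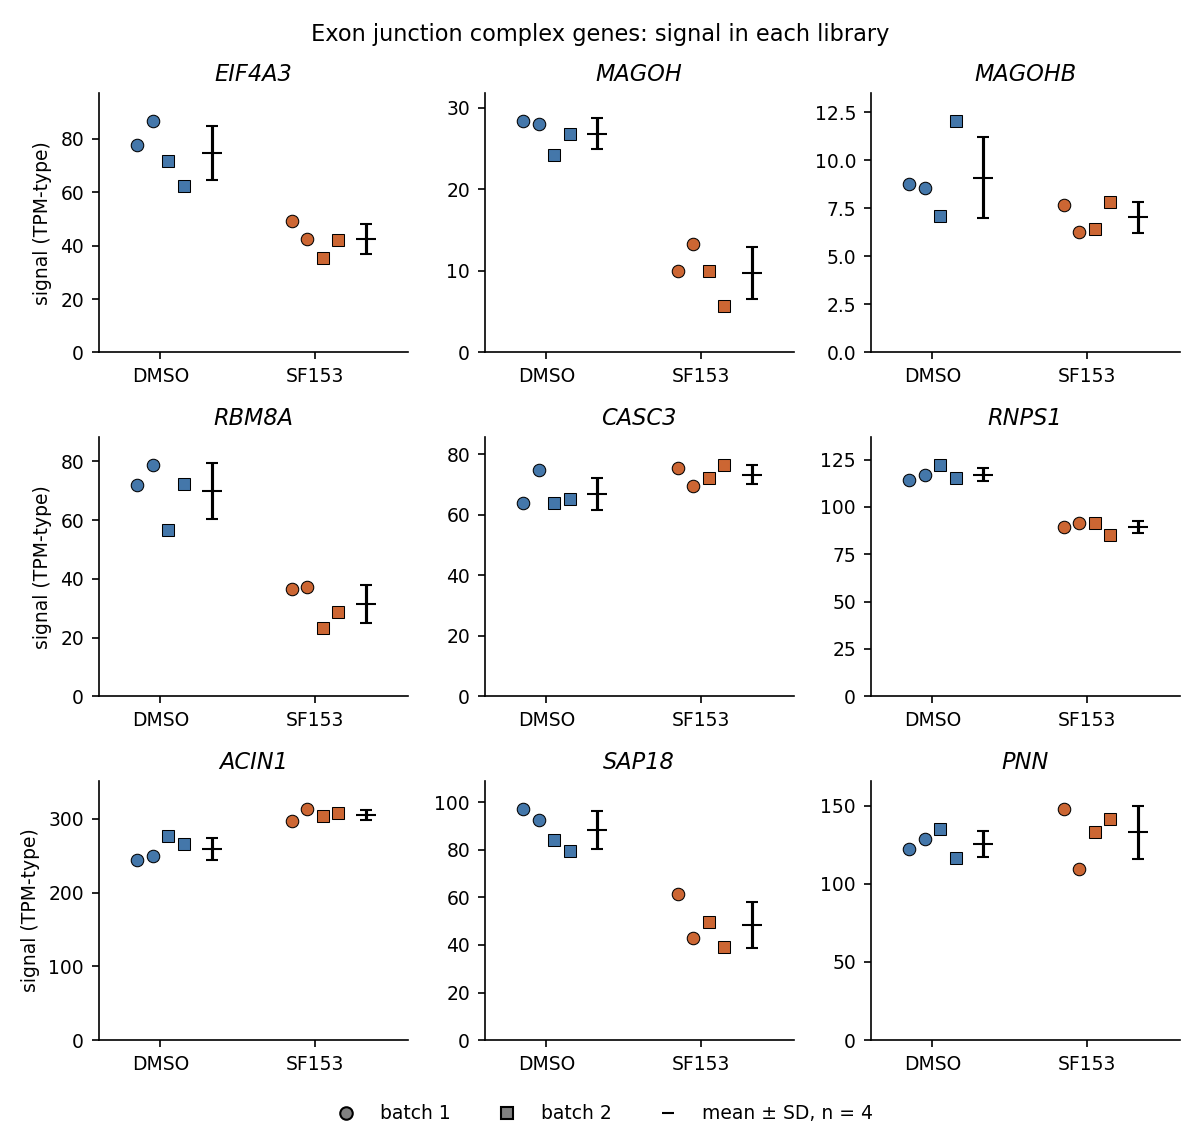
Signal of each EJC gene in the 4 DMSO and 4 SF153 libraries (vertical axes from 0). Circles mark batch 1 and squares batch 2, with mean and SD (n = 4) as bars. The axes call the signal TPM-type, but whether it is corrected for gene length was not settled. The groups do not overlap for EIF4A3, MAGOH, RBM8A, RNPS1, SAP18 (all lower in SF153) and ACIN1 (higher in SF153), and overlap for MAGOHB, CASC3 and PNN.

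The sequences just upstream of the RefSeq start of the 3 core genes that fell are shown because these genes fell together. They are the 250 bases before the RefSeq start (GRCh38.p14), 5′ to 3′ on the gene's strand. EIF4A3 is at chr17:80147129-80147378, MAGOH at chr1:53238519-53238768 and RBM8A at chr1:145927485-145927734, all on the minus strand. Capitals mark matches, on either strand, to the 6 motifs searched. These were the CCAAT box spelled CCAAT, the GC box spelled GGGCGG, the ETS motif spelled CCGGAAG, the E-box spelled CACGTG, the cyclic AMP response element spelled TGACGTCA and the TATA box spelled TATAAA.
EIF4A3: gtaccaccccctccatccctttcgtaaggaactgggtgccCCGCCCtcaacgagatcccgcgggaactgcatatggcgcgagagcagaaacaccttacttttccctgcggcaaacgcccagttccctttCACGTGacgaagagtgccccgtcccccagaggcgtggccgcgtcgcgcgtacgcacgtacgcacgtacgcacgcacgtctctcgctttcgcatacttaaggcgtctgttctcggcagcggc
MAGOH: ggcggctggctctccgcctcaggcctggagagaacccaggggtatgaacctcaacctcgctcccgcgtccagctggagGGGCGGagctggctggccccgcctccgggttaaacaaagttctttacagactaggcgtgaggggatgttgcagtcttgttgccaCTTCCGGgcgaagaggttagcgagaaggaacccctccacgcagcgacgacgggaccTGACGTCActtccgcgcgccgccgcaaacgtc
RBM8A: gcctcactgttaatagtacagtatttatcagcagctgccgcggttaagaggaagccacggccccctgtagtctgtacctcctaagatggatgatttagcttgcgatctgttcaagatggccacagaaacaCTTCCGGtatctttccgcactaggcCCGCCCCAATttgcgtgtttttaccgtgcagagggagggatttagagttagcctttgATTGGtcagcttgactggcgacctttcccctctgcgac

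In these sequences a GC box and a CCAAT box of RBM8A share bases. RefSeq promoter windows of 300 bases, which include 50 bases after the start, were matched for 7 of the 9 EJC genes. The GC box was in those of EIF4A3, MAGOH, RBM8A, RNPS1, ACIN1 and PNN and in 44.95% of all 35116 windows. The ETS motif was in those of MAGOH, RBM8A, RNPS1, ACIN1 and PNN and in 10.26% of all windows, so it was present both in genes that fell and in genes that did not. The CCAAT box was in those of RBM8A, RNPS1, ACIN1 and PNN (34.61% of all windows), the E-box in that of EIF4A3 (7.26%) and the cyclic AMP response element in those of MAGOH and RNPS1 (1.85%). The TATA box was in none of the 7 and in 11.53% of all windows. Such matches describe the letters of these windows only.

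EIF4A3 (chr17:80135214-80147183 in GENCODE 29, GRCh38), the ATPase that grips the RNA, had a signal of 77.7, 86.6, 71.6 and 62.5 in DMSO 1.1, 1.2, 2.1 and 2.2. In SF153 1.1, 1.2, 2.1 and 2.2 it had 49.2, 42.6, 35.5 and 42.0. Every SF153 library was below every DMSO library. The DMSO mean was 74.6 ± 10.1 and the SF153 mean 42.3 ± 5.59 (SD, n = 4), a log2 difference of -0.80 ± 0.12 (SE, limma adjusted p = 0.000785). EIF4A1 and EIF4A2, its paralogs that unwind mRNA for translation, were called lower too. EIF4A1 went from 835 ± 19.1 to 644 ± 17.6 (log2 difference -0.38) and EIF4A2 from 470.0 ± 14.1 to 409 ± 12.1 (-0.20). Whether EIF4A3 fell more than its paralogs was not tested, and after quantile normalization both paralogs were called higher instead. Neither paralog was called with mitochondrial and small RNA genes dropped (EIF4A1 -0.033, EIF4A2 0.14). After median-of-ratios scaling EIF4A1 was still called lower (-0.29) and EIF4A2 was not called (-0.12).

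MAGOH (chr1:53226892-53238610) had a signal of 28.3, 28.0, 24.2 and 26.8 in the DMSO libraries, in the same order. The SF153 libraries had 10.0, 13.3, 9.99 and 5.68. The 2 groups lay far apart, and SF153 2.2 was the lowest library. MAGOH had the largest difference of the 9 genes, with means of 26.8 ± 1.90 in DMSO and 9.75 ± 3.14 in SF153. The log2 difference was -1.42 ± 0.20 (SE, limma adjusted p = 0.000523), and 3.44% of all tested genes had a lower difference.

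MAGOHB (chr12:10604190-10613623), whose product takes the same place in the core, had the lowest signal of the 9 genes. It was at 8.74, 8.54, 7.07 and 12.02 in DMSO and at 7.64, 6.25, 6.43 and 7.81 in SF153. These ranges overlapped. Its log2 difference of -0.31 (95% interval -0.67 to 0.04, limma adjusted p = 0.153) did not pass the test, and the interval does not show that it was unchanged.

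The coding sequences of this pair are close, and whether this affects how reads are divided between them was not tested. Over 438 aligned bases of the coding sequence, 379 (86.53%) were identical, and the longest identical stretch was 38 bases. Of words of 31 bases, 10 were in both coding sequences. The 150 bases with the most differences are shown, 25 of them differing, bases 236 to 385 of the MAGOH and 242 to 391 of the MAGOHB coding sequence in GENCODE 29. Capitals mark the bases that differ.
MAGOH: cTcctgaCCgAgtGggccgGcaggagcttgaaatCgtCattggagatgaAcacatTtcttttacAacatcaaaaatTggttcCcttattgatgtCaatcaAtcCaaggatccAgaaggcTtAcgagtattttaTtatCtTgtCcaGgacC
MAGOHB: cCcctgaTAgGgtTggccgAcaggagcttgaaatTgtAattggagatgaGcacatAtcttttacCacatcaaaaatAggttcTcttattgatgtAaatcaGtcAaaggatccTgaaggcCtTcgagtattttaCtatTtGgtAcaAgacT

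The difference between the paralogs was examined as a ratio within each library, which a scaling factor per library leaves as it is. The signal of MAGOHB over that of MAGOH was 0.308, 0.305, 0.292 and 0.449 in DMSO 1.1, 1.2, 2.1 and 2.2. In SF153 it was 0.764, 0.469, 0.644 and 1.38, so that in SF153 2.2 the paralog was above MAGOH. The lowest SF153 library stood only just above the highest DMSO library. The mean log2 ratio was higher by 1.17 in SF153 (0.97 in batch 1 and 1.38 in batch 2). When single libraries were left out, this difference was lowest without SF153 2.2 (0.88) and highest without SF153 1.2 (1.40). An exact two-sided permutation test gave p = 0.0286, the smallest that 4 against 4 libraries allow, and 0.0571 after adjustment over the 4 ratios tested, which misses 0.05. The adjusted value could pass 0.05 only if most of the 4 ratios reached that smallest p, so the miss does not show a lack of difference. The summed signal of MAGOH and MAGOHB was 31.2 to 38.8 in DMSO and 13.5 to 19.6 in SF153.

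RBM8A (chr1:145917714-145927678), the partner of MAGOH, had a signal of 72.0, 78.8, 56.5 and 72.4 in DMSO. The SF153 libraries had 36.5, 37.1, 23.4 and 28.6. All SF153 libraries were below all DMSO libraries, and in both treatments the lowest library was 2.1. Its means were 69.9 ± 9.46 and 31.4 ± 6.60, and it fell with a log2 difference of -1.14 ± 0.16 (SE, limma adjusted p = 0.000442). Set against the summed signal of MAGOH and MAGOHB, RBM8A had a ratio of 1.81 to 2.15 in DMSO and 1.43 to 2.12 in SF153. The 2 ranges overlapped, and the mean log2 ratio differed by -0.064 (exact permutation p = 0.771, adjusted 0.771), which does not show that the ratio was unchanged. Without SF153 2.1, the library with the lowest ratio, the sign of that small difference turned (log2 difference 0.063).

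CASC3 (chr17:40140318-40172183), also called MLN51 or Barentsz, had a signal of 63.7, 74.8, 64.0 and 65.1 in DMSO. It had 75.3, 69.4, 71.9 and 76.4 in SF153. DMSO 1.2 lay among the SF153 values, and the groups overlapped. The log2 difference was 0.13 (95% interval -0.04 to 0.30, limma adjusted p = 0.205). The ratio of CASC3 to EIF4A3 was 0.820 to 1.04 in DMSO and 1.53 to 2.03 in SF153, without overlap. The mean log2 ratio was 0.95 higher in SF153 (0.91 in batch 1 and 0.99 in batch 2), with an exact permutation p = 0.0286, the smallest possible, and 0.0571 after adjustment over the 4 ratios.

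**Figure D2:**
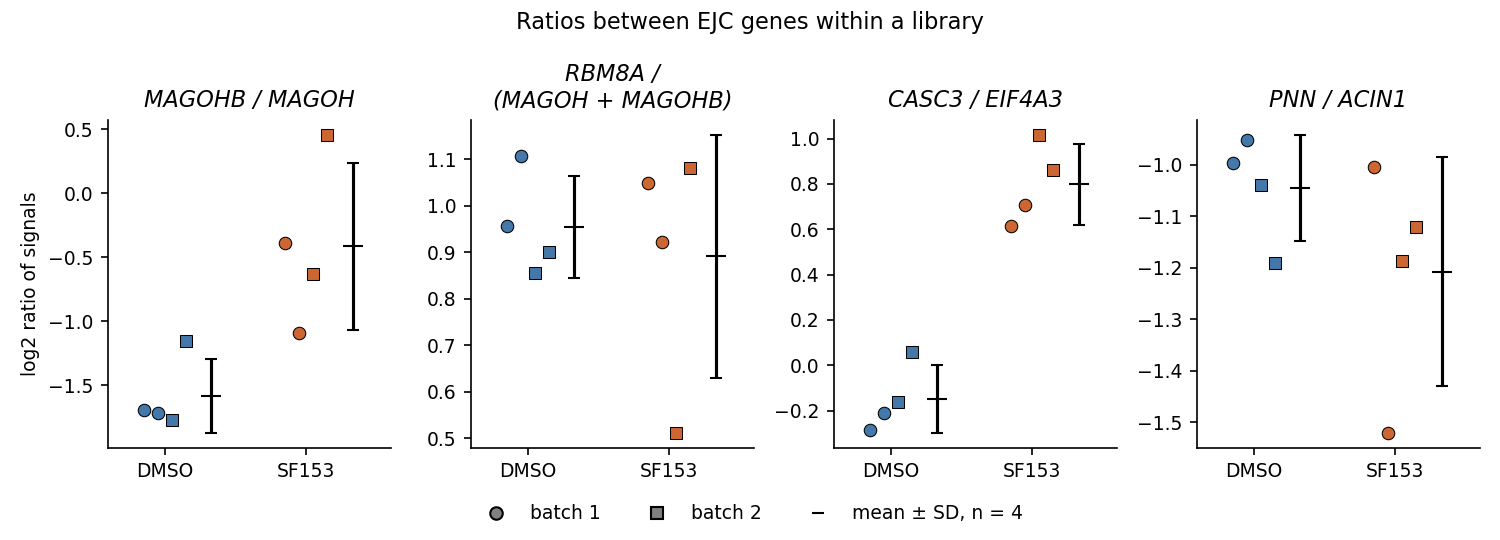
Log2 ratio of signals between EJC genes in each library (circles batch 1, squares batch 2, bars mean and SD, n = 4; vertical axes differ between panels). MAGOHB over MAGOH and CASC3 over EIF4A3 are higher in every SF153 library than in any DMSO library, whereas the ranges of the other 2 ratios overlap.

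SAP18 and RNPS1, the subunits shared by ASAP and PSAP, were both lower with the authors' scaling. SAP18 (chr13:21140514-21149084), a small protein first described with the Sin3 histone deacetylase complex, had a signal of 97.3, 92.7, 84.2 and 79.3 in DMSO and 61.3, 42.9, 49.8 and 39.3 in SF153. The groups did not overlap, with a log2 difference of -0.87 ± 0.13 (SE, limma adjusted p = 0.000797). RNPS1 (chr16:2253116-2268412), an RNA-binding protein that activates splicing, had 114.1, 116.8, 122.1 and 115.3 in DMSO and 89.1, 91.3, 91.6 and 85.0 in SF153. The change was smaller but the libraries of each group lay close together, and the log2 difference was -0.39 ± 0.06 (SE, limma adjusted p = 0.000888). The RNPS1 call was lost when mitochondrial and small RNA genes were dropped (-0.048) and after removal of the trend on transcript length (-0.064) or coding length (0.077), and the SAP18 call after the last of these (-0.17).

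Of the scaffolds of ASAP and PSAP, ACIN1 was higher and PNN did not pass the test. ACIN1 (chr14:23058564-23095614), the scaffold of ASAP and the EJC gene with the highest signal, had 244, 249, 277 and 266 in DMSO. It had 297, 314, 303 and 308 in SF153. Each SF153 library was above each DMSO library, and the log2 difference was 0.24 ± 0.06 (SE, limma adjusted p = 0.0166). This call was lost without DMSO 1.1 (0.21, limma adjusted p = 0.0501), in batch 2 alone (0.17, limma adjusted p = 0.0836) and when libraries of a treatment and batch were averaged (limma adjusted p = 0.182). In those 3 settings 5 EJC genes were lower and 0 higher, against 21.2%, 15.8% and 16.2% lower and 10.2%, 5.53% and 5.86% higher among all genes, in that order.

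PNN (chr14:39175183-39183218), or pinin, the scaffold of PSAP, had 122.2, 128.9, 134.9 and 116.3 in DMSO and 148.0, 109.3, 133.3 and 141.7 in SF153. The SF153 libraries enclosed the whole DMSO range. Its log2 difference was 0.076 (95% interval -0.15 to 0.30, limma adjusted p = 0.587). The ratio of PNN to ACIN1 was 0.438 to 0.517 in DMSO and 0.348 to 0.499 in SF153, and the mean log2 ratio differed by -0.16 (exact permutation p = 0.257, adjusted 0.343).

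No EJC gene passed the test of a difference between batches (lowest limma adjusted p of the treatment by batch term 0.638), and 1.15% of all genes passed. The lowest unadjusted limma p was 0.119, for ACIN1 (log2 difference 0.31 in batch 1 and 0.17 in batch 2). With 2 libraries per treatment and batch, this does not show that the differences were the same in both batches. EIF4A3 had log2 differences of -0.83 in batch 1 and -0.78 in batch 2, MAGOH of -1.22 and -1.63, RBM8A of -1.01 and -1.27, and SAP18 of -0.88 and -0.87. Without both SF153 libraries of batch 2, where the mitochondrial share was high, and likewise without both of batch 1, where the RN7SK share was high, 5 EJC genes were lower and 1 was higher. Of all genes, 18.5% were lower and 7.30% higher in the first case, and 22.8% and 10.3% in the second. With batch as a term in the model the counts were again 5 and 1, against 24.9% and 13.3% of all genes.

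The scaling between libraries moved all differences and ended 1 of the lower calls. When the signal was rescaled after dropping mitochondrial and small RNA genes, the median of all genes moved by 0.30 to 0.26, and 35.0% of genes were called higher and 13.8% lower. There 4 EJC genes were lower and 3 higher. MAGOH (-1.10), RBM8A (-0.81), SAP18 (-0.54) and EIF4A3 (-0.47) still fell, RNPS1 was at -0.048 (limma adjusted p = 0.59), and ACIN1 (0.58), CASC3 (0.47) and PNN (0.42) rose. After quantile normalization (20.8% of genes higher, 18.2% lower) 5 were lower, and ACIN1 (0.94) and CASC3 (0.31) were higher. Median-of-ratios scaling (17.0% higher, 20.9% lower) left 5 lower and 1 higher.

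**Figure D3:**
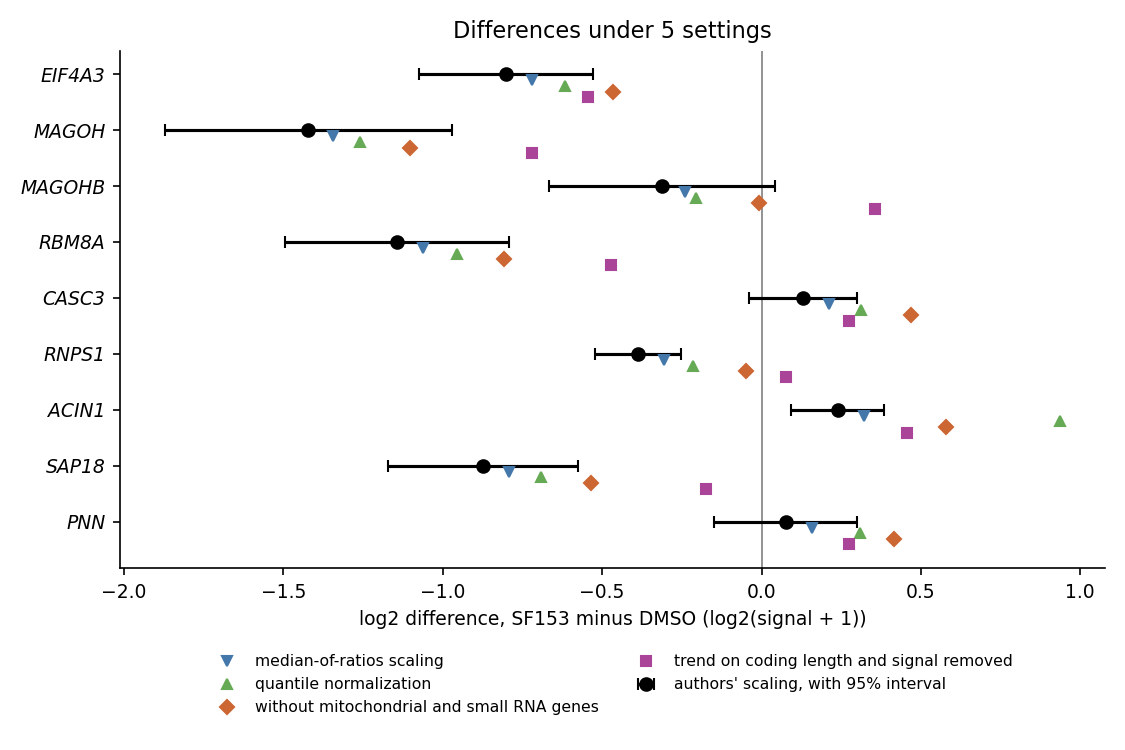
Log2 difference, SF153 minus DMSO, of each EJC gene with the authors' scaling (black, 95% interval from limma) and under 3 other scalings and after removal of the trend on coding length and mean signal (coloured symbols). EIF4A3, MAGOH, RBM8A and SAP18 lie below 0 and CASC3, ACIN1 and PNN above 0 under all 5, whereas MAGOHB and RNPS1 cross 0 after the trend is removed.

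The EJC genes also differed in length, and over all genes the difference between treatments varied with coding length. Of tested genes with a coding sequence of up to 600 bases, 58.8% were lower, with a median log2 difference of -0.69 (1498 genes). Of those with more than 2000 bases, 18.6% were lower, with a median of 0.0053 (3254 genes). MAGOH (438 bases), MAGOHB (444), SAP18 (516) and RBM8A (522) are in the short class, and CASC3 (2109), PNN (2151) and ACIN1 (4023) in the long class. In the class above 600 and up to 1200 bases, which holds RNPS1 (915), the median was -0.27, and in that above 1200 and up to 2000 bases, which holds EIF4A3 (1233), it was -0.10 with 27.3% lower. EIF4A3, at -0.80, lay further below the median of its class than SAP18 did. By the length of the longest transcript the order was another one. Genes of up to 1000 bases, among them MAGOH (756), had a median of 0.14 with 14.6% lower (2823 genes, 2303 of them without a coding sequence), and those of 1000 to 2000 bases, among them EIF4A3 (1734), a median of -0.14 with 33.6% lower.

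When the trend on coding length and mean signal was removed from each library, an alternative chosen after the values were seen, EIF4A3 (-0.55, limma adjusted p = 0.00182), MAGOH (-0.72, 0.00466) and RBM8A (-0.47, 0.00498) were still called lower. SAP18 was not (-0.17, limma adjusted p = 0.235), nor was RNPS1 (0.077, limma adjusted p = 0.452). CASC3 (0.27) and ACIN1 (0.46) were called higher. In that setting 21.5% of 11073 genes were lower and 23.4% higher. With the trend on transcript length in place of coding length, 4 EJC genes were lower and 3 higher, against 18.7% and 21.7% of all genes, and SAP18 was still called lower.

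**Figure D4:**
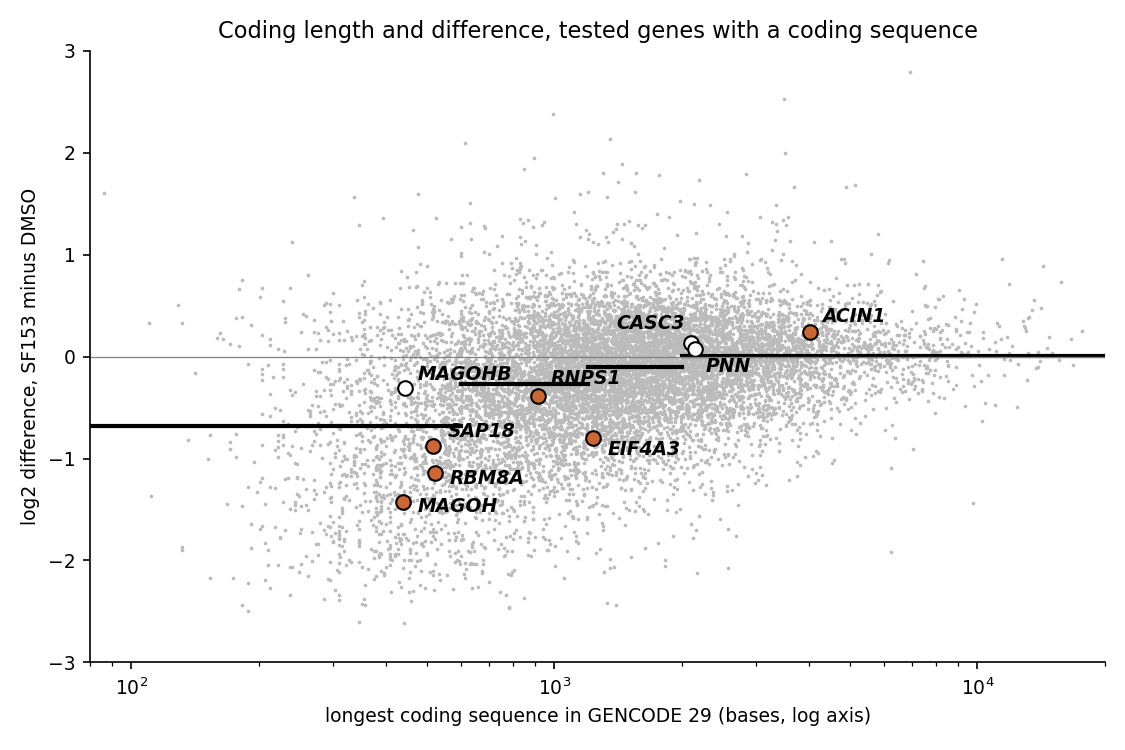
Log2 difference, SF153 minus DMSO, against the longest coding sequence (bases, log axis) for tested genes with a coding sequence (grey), with the median of each of 4 length classes (black lines) and the 9 EJC genes (filled where called, open where not). The class medians go from -0.69 for up to 600 bases to 0.0053 for over 2000 bases, and EIF4A3, MAGOH, RBM8A, SAP18 and RNPS1 lie below the lines of their classes.

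Some EJC genes share sequence with copies, and its effect on these values was not tested. Of the distinct 31-base words in the GENCODE 29 protein-coding transcripts of each gene, 13.9% of RNPS1 (mostly its pseudogene RNPS1P1), 10.6% of RBM8A (mostly RBM8B), 8.10% of MAGOH (mostly MAGOH2P), 4.26% of MAGOHB (mostly MAGOH3P) and 1.67% of SAP18 (mostly SAP18P2) were also in transcripts of other genes. For CASC3 and ACIN1 the share was 0.249% and 0.09%, and for EIF4A3 and PNN it was 0. These pseudogenes were not analysed here.

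Of 4 factors that load and recycle the complex, 1 was lower and 0 were higher (median log2 difference -0.19), close to the 24.3% lower and 13.0% higher among all genes. CWC22, the spliceosome protein that brings in EIF4A3, had 10.1 ± 1.20 in DMSO and 6.47 ± 0.888 in SF153. It fell with a log2 difference of -0.57 (limma adjusted p = 0.00765), a call lost once mitochondrial and small RNA genes were dropped (-0.27). CWC27, its partner in the spliceosome, had 27.6 ± 3.62 in DMSO and 24.0 ± 0.88 in SF153. PYM1, which takes the complex apart at the ribosome, had 19.6 ± 0.97 and 18.3 ± 3.49, and IPO13, which returns MAGOH and RBM8A to the nucleus, had 18.4 ± 1.63 and 16.3 ± 4.73. None of these last 3 passed the test. Whether the core differed from this list was not tested.

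Of 10 NMD factors, which read the complex during translation, 2 were lower and 1 higher (median log2 difference 0.026), again near the 24.3% and 13.0% of all genes. UPF3B, the NMD protein that binds the EJC, had 9.15 ± 0.75 in DMSO and 8.88 ± 1.28 in SF153 (limma adjusted p = 0.806). UPF2, its partner, fell with a log2 difference of -0.31 and SMG8, a subunit of the SMG1 kinase complex, with -0.36, whereas SMG5, a late-acting decay factor, rose by 0.31. With mitochondrial and small RNA genes dropped neither fall was called, and 5 of the 10 rose and 0 fell, where 35.0% of all genes were higher and 13.8% lower. Of 12 genes whose RNA is known to be degraded by NMD, 4 were lower and 1 higher (median -0.21), but 3 were higher and 0 lower after that rescaling. Among all genes 24.3% were lower and 13.0% higher, and 35.0% higher and 13.8% lower after rescaling. GAS5 and ZFAS1, noncoding hosts of small nucleolar RNAs, fell with log2 differences of -0.50 and -0.55 with the authors' scaling, and were not called after quantile normalization (0.15 and 0.11) or after that rescaling (-0.16 and -0.20). UPP1, uridine phosphorylase, rose by 0.85 on the log2 scale. Its signal was low, at 0.317 to 1.28 in DMSO and 1.21 to 2.91 in SF153, and the ranges overlapped. Its call was lost after quantile normalization (0.73).

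Of 20 export factors and SR proteins that meet the EJC on mRNA, 11 were lower and 2 higher (median -0.28), and 6 were lower and 6 higher when mitochondrial and small RNA genes were dropped (median 0.052). Among all genes 24.3% were lower and 13.0% higher, and with those genes dropped 13.8% lower and 35.0% higher. ALYREF, the export adaptor that binds the EJC, had a larger fall than any of the 9 EJC genes, from 69.5 to 88.5 in the DMSO libraries to 14.4 to 25.0 in the SF153 libraries (log2 difference -1.91 ± 0.16 SE, limma adjusted p = 4.29e-05). THOC7, a subunit of the THO complex, and NXT1, the partner of the export receptor NXF1, fell with log2 differences of -1.24 and -1.18. All 3 were called lower under each of the 3 other scalings. The values of the partner lists after removal of the trend on coding length, which ended the SAP18 call, were not examined. SRSF3, an SR protein, also fell in each (-1.12 with the authors' scaling), and was the fourth of this list in size, named after its value was seen.

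**Figure D5:**
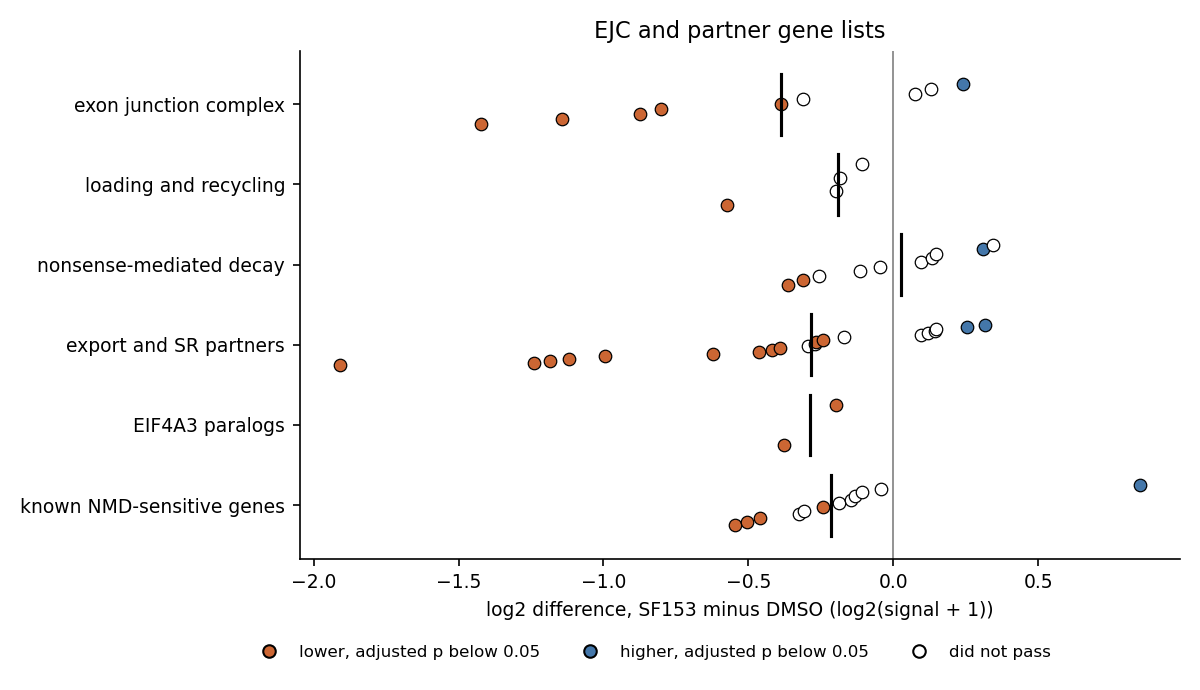
Log2 difference, SF153 minus DMSO, of each gene of the EJC and of 5 partner lists (1 point per gene, filled where called, open where not; black bars are list medians). The EJC median is -0.39 with the authors' scaling (-0.048 with mitochondrial and small RNA genes dropped), that of the NMD factors 0.026 and that of the export and SR partners -0.28, where ALYREF stands lowest at -1.91.

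The genes whose level was most like that of EIF4A3 over the 8 libraries were LZIC, CASP4 and GPSM3 (Pearson r 0.995, 0.994 and 0.994 on log2(signal + 1), among 10197 genes compared, each with a mean signal of 5 or more). For MAGOH they were RGS10, RCAN1 and ZMPSTE24 (0.998, 0.997 and 0.995). All 6 had a lower level in SF153, and the 8 libraries these values rest on fall into 2 treatments.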

How the data were processed

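Total RNA was depleted of ribosomal RNA, fragmented and sequenced with strand information, per the labels' protocols. The authors deposited a signal per gene and library that their file labels call both CPM and TPM. Column sums ranged from 828381 to 1027119 and were lowest in SF153 2.1 and 2.2. The values are therefore not plain TPM, and the sources used here do not give the scaling between libraries. CASAVA 1.8.2, STAR, Salmon, edgeR and GRCh38 are named without roles, per the submitters' processing notes. The test planned for TPM was applied unchanged.

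All 17912 genes were taken as log2(signal + 1), and 15542 with a mean signal of at least 1 were fitted with limma 3.58.1 in R 4.3.3 (intensity trend, no batch term, 4 against 4 libraries), which was tested on simulated data. Names of 4 of the 8 columns differed by a letter or digit from the labels' library names, and were matched on the remaining parts of the name, which fit no other sample. Positions and lengths are from GENCODE 29, and promoters from RefSeq. Ratios were tested with exact permutation. The EJC genes, lists and the rule for named genes (all 9 members, all of a list of up to 4 genes, otherwise the 3 largest called plus UPF3B and ALYREF, and the 3 genes most like EIF4A3 and MAGOH) were chosen with earlier results of these data known. Samples can be paired only by the batch number in the labels, which libraries of both treatments share, and the main fit did not pair them. Deviations of same-batch libraries across treatments had a mean r of 0.026 over 8 pairs of libraries (-0.0041 to 0.0594), across genes.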

Additional observations from a re-analysis of the deposited data

Results flagged for a closer look

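In 2 cases a value stood apart from the other libraries of its group by Dixon's test, with the gap to the nearest library taking most of the group's range. CASC3 in DMSO 1.2 had a signal of 74.8, and the other DMSO libraries had 63.7 to 65.1. The log2 ratio of MAGOHB to MAGOH in DMSO 2.2 was -1.16, the library in which MAGOHB had its highest signal of 12.02. Of 26 groups of 4 tested in this way 2 stood apart, and chance alone flags about 1 in 20. No EJC gene had a treatment by batch difference past the threshold.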

How the results depend on the processing

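Each EJC gene was refitted under 25 alternatives. EIF4A3 (log2 difference -0.92 to -0.46), MAGOH (-1.70 to -0.72) and RBM8A (-1.39 to -0.47) kept their direction and their call in all of them. The number of lower genes was 5 with the authors' values (24.3% of all genes) and 3 after removal of the trend on coding length (21.5%). In the latter setting the differences of MAGOHB (0.36) and RNPS1 (0.077) were above 0 without passing the test. The number of higher genes was 1 with the authors' values (13.0% of all genes). It was 2 after quantile normalization (20.8% of all genes) and after removal of the trend on coding length (23.4%). It was 3 with mitochondrial and small RNA genes dropped (35.0%) and after removal of the trend on transcript length (21.7%). These 3 were CASC3, ACIN1 and PNN, and RNPS1 was not called lower there. The number of higher genes was 0 in batch 2 alone (5.53% of all genes) and with libraries of a treatment and batch averaged (5.86%). It ranged from 0 (without DMSO 1.1, 10.2% of all genes) to 1 when single libraries were left out. The median of the 9 genes was -0.31 after median-of-ratios scaling, -0.21 after quantile normalization, -0.048 with mitochondrial and small RNA genes dropped, -0.20 after removal of the trend on transcript length and 0.077 after that on coding length. The cause of these changes was not tested. The ratio of RBM8A to MAGOH and MAGOHB differed by -0.13 to 0.063 (log2) when single libraries were left out. With batch as a replicate block, 5 EJC genes were lower and 1 was higher (24.9% and 13.3% of all genes), and no call on them changed. With labels permuted within batches as a replicate block, the smallest adjusted p of the ratios was 0.111, and since 36 assignments allow no p below 0.0556 this test could not pass 0.05. Summing EJC genes with their pseudogene copies was not run. Of all genes, 5785 were called with the authors' values, 3429 with libraries averaged, 3131 in batch 1 alone and 3315 in batch 2 alone. Read depth is unknown, so no counting error is given.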
